A study of Homo sapiens with 2 samples.

Results

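Integrins and the focal adhesion proteins that tie them to actin were followed in the long-established human glioblastoma line A172 and in a derivative of it resistant to temozolomide. The 30 members were chosen by name: 16 integrin chains and 14 cytoplasmic proteins of the talin, kindlin, paxillin, kinase and actinin layers. All 30 were among the 15603 genes listed. RNA was sequenced in 2 libraries. The first came from parental A172 cells, labelled as kept without temozolomide (TMZ), the alkylating drug used against this tumour. The second came from the derivative labelled A172-r#6, a resistant clone selected with TMZ and labelled as treated with the drug. There was 1 library per group and the resistant group is 1 clone, so clone, selection and drug exposure cannot be told apart, and no difference below has a replicate check. Levels are FPKM, that is, fragment numbers divided by transcript length and by depth, which allows levels of genes of different length to be set side by side. Depth is unknown, because the values are FPKM.

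Integrins are receptors of the cell surface made of an alpha and a beta chain, and the chain pair sets which matrix protein is bound. The short cytoplasmic tail of the beta chain binds talin and kindlin, which switch the receptor on. Vinculin and the actinins then link the complex to actin filaments, and kinases such as focal adhesion kinase and Src signal from it. In gliomas these receptors are known for attachment to and migration through the matrix of the brain.

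In the resistant library 5 integrin chains fell at least 2-fold: ITGA11, ITGA10, ITGA7, ITGA4 and ITGB8. No integrin chain rose by that much. Among the cytoplasmic proteins only TNS3, a tensin, was called higher by the fold rule given below, and none was called lower. The low TNS1 was 4.63-fold lower by the plain FPKM ratio but ended just inside that rule (-0.999), as did VCL (-0.97). The chains that fell had between 3.65 and 30.5 FPKM in the parental library. The abundant ITGB1, ITGA3, ITGA5 and ITGAV stayed within 2-fold, as did chains at lower levels such as ITGA2, ITGB4 and ITGA8. The log2 fold was taken as log2 of (resistant FPKM + 1) over (parental FPKM + 1), which understates the change of low genes, and a gene was called at a fold of 2 or more in size. With a pseudocount of 5 the calls of ITGA10 (-0.73), ITGA7 (-0.996), ITGB8 (-0.78) and TNS3 (0.95) were lost, and those of ITGA11 (-1.06) and ITGA4 (-1.16) were not.

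The filter of 1 FPKM in either library was passed by 28 members. ITGA1 and ITGB3 missed it. Of the 28, 5 were called lower, beside 3.82% of all 13937 genes tested. TNS3 made 1 called higher, beside 4.59% of all genes. The 14 integrin chains tested had a median log2 fold of -0.40 and the 14 cytoplasmic proteins one of -0.11, beside 0.04 over all genes. Negative folds were found for 10 of the 14 integrin chains and for 8 of the 14 cytoplasmic proteins. Over all 13937 genes tested, 6506 had negative folds. In bulk RNA, fewer cells of a type and less RNA per cell cannot be told apart.

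**Figure D1:**
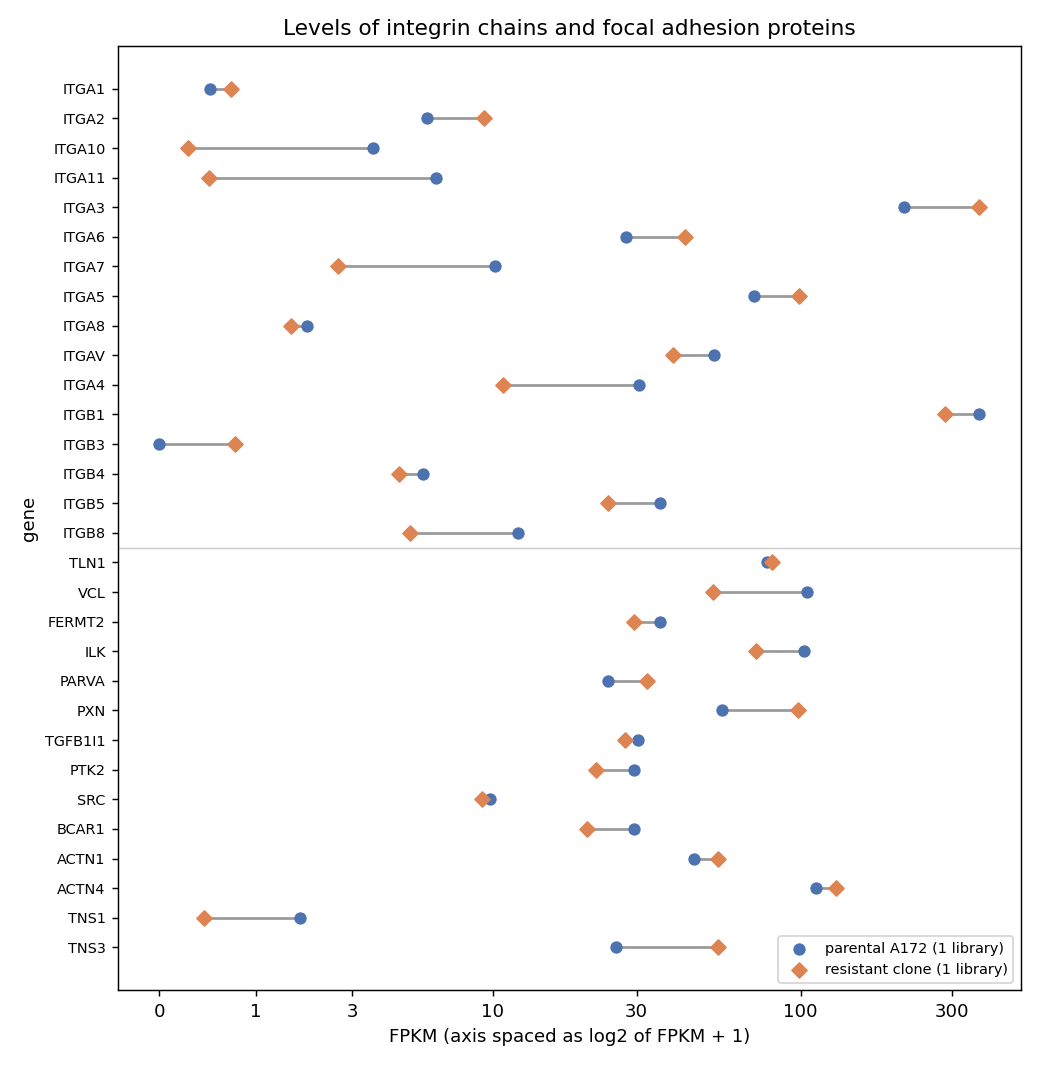
FPKM of the 30 members in the parental (circles) and resistant (diamonds) library, 1 library each, on an axis spaced as log2 of FPKM + 1; integrin chains stand above the grey line and cytoplasmic proteins below it. The longest leftward shifts are those of ITGA11, ITGA10, ITGA7, ITGA4, ITGB8, TNS1 and VCL, and ITGB3 is listed at 0 in the parental library.

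**Figure D2:**
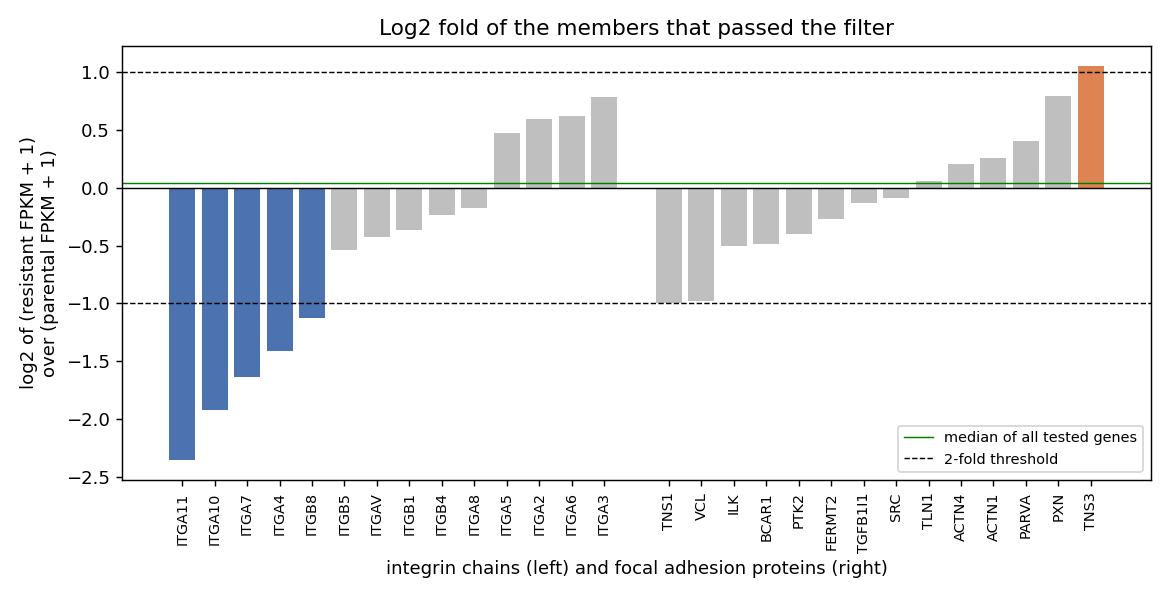
Log2 fold (resistant over parental, pseudocount of 1) of the 28 members that passed the filter, sorted within integrin chains (left) and cytoplasmic proteins (right). Blue bars fell and the orange bar rose at least 2-fold, dashed lines mark that threshold, and TNS1 and VCL end just inside it.

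Collagen-binding alpha chains share an inserted domain that docks on collagen, and each pairs with ITGB1 alone. ITGA11, a receptor for fibrillar collagen known from fibroblasts, had 6.31 FPKM in parental cells and 0.433 in the resistant clone (log2 fold -2.35). ITGA10, best known from cartilage, had 3.65 and 0.225 FPKM (-1.92). By the plain FPKM ratio ITGA10 was 16.2-fold and ITGA11 14.6-fold lower, the other way round than with the pseudocount. ITGA11 had the 33rd lowest log2 fold of all genes tested. ITGA2, the collagen receptor of platelets and epithelia, had 5.84 and 9.33 FPKM (0.59), within 2-fold. ITGA1, a receptor for basement membrane collagen, was low in both libraries, at 0.442 and 0.675 FPKM, and shares 475 of its 18566 exon bases with PELO on the same strand. ITGA2 thus stood at 0.587 times the summed FPKM of ITGA10 and ITGA11 in the parental library and at 14.2 times in the resistant one. In the resistant library ITGA10 and ITGA11 each lay under 1 FPKM, so that ratio rests on low levels.

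ITGA11 lies on chromosome 15 from 68296533 to 68432162 and ITGA10 on chromosome 1 from 145891208 to 145910189, both on the minus strand (GRCh38, GENCODE release 29). No other listed gene shares exon bases with either. The 250 bases before the start of each are shown because they are the related chains that fell furthest. They come from RefSeq (GRCh38.p14, minus strand, chr1:145910051-145910300 and chr15:68432164-68432413), and run 5′ to 3′ towards the start. The RefSeq start of ITGA10 lies inside the GENCODE gene. Capitals mark matches, on either strand, to a TEAD motif (GGAATG), to the box named CCAAT or to an E-box (CAGGTG).
ITGA10: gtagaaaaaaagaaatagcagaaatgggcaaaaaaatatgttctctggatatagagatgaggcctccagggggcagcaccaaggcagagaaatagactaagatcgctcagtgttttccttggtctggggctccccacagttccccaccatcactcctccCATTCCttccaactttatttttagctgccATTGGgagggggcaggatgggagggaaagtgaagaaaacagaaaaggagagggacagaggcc
ITGA11: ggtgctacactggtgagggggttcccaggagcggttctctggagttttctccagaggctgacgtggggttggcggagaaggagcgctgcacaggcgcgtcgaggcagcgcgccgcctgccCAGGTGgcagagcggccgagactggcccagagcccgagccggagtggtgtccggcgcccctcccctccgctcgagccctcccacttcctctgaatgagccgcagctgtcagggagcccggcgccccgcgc
The ITGA10 window held 1 TEAD match and 1 CCAAT match, and its GC content was 48.4%. The ITGA11 window held 1 E-box and its GC content was 71.2%, beside a median of 58.0% over 35114 such windows. These motifs stood in 11.9% (TEAD), 32.0% (CCAAT) and 17.5% (E-box) of all windows. The GC box (GGGCGG), the TATA box (spelled TATAAA) and the AP-1 motif (TGANTCA) were also searched and had no match in either window. The windows of these genes therefore held no searched motif in common. Such matches are descriptions of the letters and not sites of binding.

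Of the 3 laminin-binding alpha chains 1 was called. ITGA7, the laminin receptor of muscle, had 10.2 FPKM in parental cells and 2.61 in the resistant clone (log2 fold -1.63). ITGA3, which binds laminins of basement membranes and was the most abundant alpha chain in both libraries, had 212 and 365 FPKM (0.78). ITGA6, which pairs with ITGB1 or with the hemidesmosome chain ITGB4, had 27.7 and 43.0 FPKM (0.62). The folds of both ITGA3 and ITGA6 stayed under the 2-fold threshold. The level of ITGA6 was 2.72 times that of ITGA7 in the parental library and 16.5 times in the resistant one. ITGA7 lies on chromosome 12 from 55684568 to 55716043, minus strand. It shares 44 exon bases with METTL7B on the opposite strand, which had 1.05 and 0.0251 FPKM, and whether strand was used in counting is not stated in the labels or the file.

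The alpha chains that recognise the RGD motif of fibronectin and vitronectin were not called. ITGA5, the main fibronectin receptor chain, had 71.0 FPKM in parental cells and 99.0 in the resistant clone (log2 fold 0.47). ITGAV, which pairs with ITGB1, ITGB3, ITGB5, ITGB6 or ITGB8, had 53.2 and 39.3 FPKM (-0.43). ITGA8, known from kidney development, had 1.90 and 1.57 FPKM (-0.17). ITGA4, which binds fibronectin outside that motif and the cell-surface ligand VCAM1, fell from 30.5 to 10.9 FPKM (-1.41). ITGA4 was the fourth most abundant alpha chain in the parental library and the fifth in the resistant one. It lies on chromosome 2 from 181457202 to 181536187, plus strand. The ratio of ITGA5 to ITGA4 was 2.33 for parental cells and 9.10 for the resistant clone.

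All 4 beta chains tested had negative folds, beside 6506 of all 13937 genes, and 1 of the 4, ITGB8, was called. ITGB8, a partner of ITGAV known for the activation of latent TGF-beta, had 12.2 FPKM in parental cells and 5.05 in the resistant clone (log2 fold -1.13). It lies on chromosome 7 from 20330702 to 20415754, plus strand, and shares 98 of its 15156 exon bases with a listed gene on the opposite strand. ITGB1, the common partner of most alpha chains, had 365 and 284 FPKM (-0.36). ITGB5, a vitronectin receptor chain, had 35.8 and 24.3 FPKM (-0.54), and ITGB4 had 5.64 and 4.63 (-0.24). ITGB3, a partner of ITGAV and of the platelet chain ITGA2B, was listed at 0 in the parental library and at 0.718 FPKM in the resistant one. A listed 0 can be a failed estimate, so no fold is given.

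Sums over alpha and beta chains differed in opposite directions. The 11 alpha chains summed to 422 FPKM in parental cells and 572 in the resistant clone, and the 5 beta chains to 419 and 318. ITGA3 made up 50.1% of the alpha sum in parental cells and 63.8% in the resistant clone. The laminin-binding chains together took 59.1% and 71.8%. ITGA4 took 7.22% and 1.90%, the collagen-binding chains 3.85% and 1.86%, and the RGD-binding chains 29.9% and 24.4%. The 8 alpha chains that pair with ITGB1 alone summed to 0.851 times the level of ITGB1 in the parental library and to 1.69 times in the resistant one. These are levels of mRNA, and receptor at the surface was not measured.

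**Figure D3:**
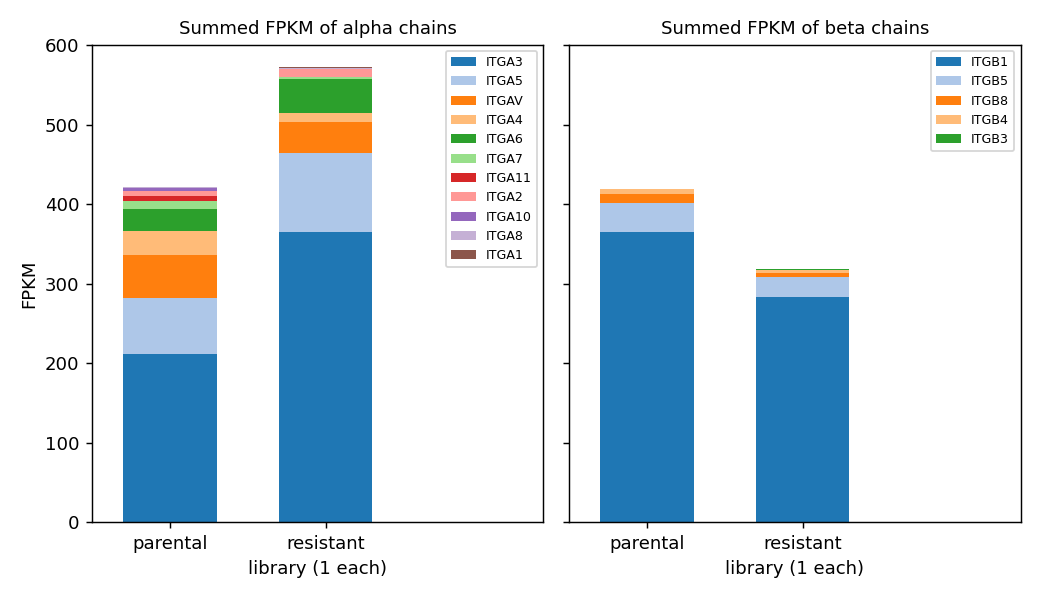
Stacked FPKM of the 11 alpha chains (left) and the 5 beta chains (right) in each library, 1 library per bar. The ITGA3 block grows from 212 to 365 FPKM, the ITGA4 block shrinks from 30.5 to 10.9, and the beta sum goes from 419 to 318 with ITGB1 as its main part.

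Among the proteins that activate integrins and carry force, VCL lay nearest to a call. Vinculin, VCL, which strengthens the talin-actin link, had 105 FPKM in parental cells and 52.9 in the resistant clone (log2 fold -0.97), a plain ratio of 1.98-fold lower. It shares 1109 of its 9992 exon bases with AP3M1 on the opposite strand, which had 28.1 and 20.9 FPKM. With the libraries scaled to a common median, upper quartile or sum, VCL passed the 2-fold threshold (-1.02 to -1.09). Talin, TLN1, which activates integrins, had 78.2 and 81.2 FPKM (0.05). The kindlin FERMT2, its co-activator, had 35.8 and 29.5 FPKM (-0.27). Neither TLN1 nor FERMT2 was called under any alternative run.

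The ILK complex joins kindlin to actin. ILK, the integrin-linked pseudokinase, had 103 FPKM in parental cells and 72.2 in the resistant clone (log2 fold -0.50). ILK shares 2374 of its 3484 exon bases with TAF10 on the opposite strand, which had 10.4 and 18.8 FPKM. PARVA, the parvin that binds ILK, had 24.3 and 32.5 FPKM (0.41). Neither was called, and the ILK level was 4.23 times that of PARVA in the parental and 2.22 times in the resistant library.

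Paxillin family proteins are scaffolds with LIM domains that recruit kinases to adhesions. PXN had 56.4 FPKM in parental cells and 98.5 in the resistant clone (log2 fold 0.79), under the 2-fold threshold. It shares 918 of its 7460 exon bases with PXN-AS1 on the opposite strand, which had 1.95 and 0.816 FPKM. TGFB1I1, a paxillin relative induced by TGF-beta, had 30.3 and 27.6 FPKM (-0.13). The kinases and their scaffold all had small negative folds. Focal adhesion kinase, PTK2, had 29.6 and 22.2 FPKM (-0.40), SRC had 9.81 and 9.19 (-0.09), and the Cas scaffold BCAR1, a substrate of both, had 29.4 and 20.7 (-0.49). BCAR1 has 2 processed copies annotated in the genome, which can share its reads. It also shares 788 of its 9178 exon bases with RP11-331F4.5 on the same strand, which had 2.94 and 1.80 FPKM. None of PXN, TGFB1I1, PTK2, SRC and BCAR1 was called.

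Actinins crosslink actin filaments at the inner face of the adhesion. ACTN4 had 112 FPKM in parental cells and 129.6 in the resistant clone (log2 fold 0.21), and ACTN1 had 45.8 and 54.7 (0.25). Neither was called, and ACTN4 has 2 annotated processed copies. Tensins bind the beta tail in the long, mature fibrillar adhesions. TNS3 rose from 25.8 to 54.6 FPKM (1.05), while TNS1 had 1.76 and 0.379 (-0.999), just inside the threshold. By the plain ratio TNS1 was 4.63-fold lower. TNS3 was 14.7 times the level of TNS1 in the parental library and 144 times in the resistant one, where TNS1 lay under 1 FPKM. TNS3 lies on chromosome 7 from 47275154 to 47582558, minus strand, and shares exon bases with no other listed gene. Its call was lost with upper quartile scaling (0.97), sum scaling (0.94) and a pseudocount of 5 (0.95). TNS1 passed the threshold with a pseudocount of 0.1 (-1.95) and with each of the 3 scalings (-1.01 to -1.03).

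In the authors' deposited table, 8 of the 30 members were lower and 3 higher at a q-value under 0.05, a threshold chosen here, beside 3.98% lower and 5.13% higher among all 15603 genes. The authors' deposited table gave ITGA11 a q-value of 5.77e-13, ITGA7 one of 1.71e-10 and ITGA10 one of 3.53e-11. ITGA4 had 0.00129 and ITGB8 0.0133 in the authors' deposited table. Beyond these 5 chains, the authors' deposited table had TNS1 (0.00036), VCL (0.0307) and BCAR1 (0.0490) lower, and TNS3 (0.00256), PXN (0.00713) and ITGB3 (0.0272) higher. A test on 2 libraries compares those libraries and not the conditions.

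The genes beside the called members mostly stayed within 2-fold, as did most genes. Of all 13937 genes tested, 4.59% were called higher and 3.82% lower. For each of the 6, the 5 tested genes on either side were examined, 10 in all, a choice made after the data were seen. No neighbour of ITGA10 or ITGA11 was called, and the medians of their neighbours were -0.12 and 0.19. ITGA7 had 1 neighbour called lower and ITGA4 had 2, among them SSFA2 with 237 and 82.6 FPKM. ITGB8 had 1 higher and 1 lower. TNS3 had 1 higher, UPP1, with 11.0 and 72.2 FPKM.

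Other adhesion genes, from a wider list of 97 names, of which 77 were listed and 74 tested, showed 6 higher and none lower, with a median log2 fold of 0.17. The share called higher was 8.11%, beside 4.59% of all genes. TES, a LIM protein of adhesions, had 0.0566 and 2.47 FPKM (1.72). FLNC (7.72 and 16.9 FPKM), the phosphatase PTPRF (26.8 and 56.4), the kinase FYN (14.7 and 30.8) and the LIM protein AJUBA (24.8 and 50.8) lay just past the threshold, between 1.004 and 1.04. With any of the 3 scalings 2 of the 6 calls were left, TES among them, and TNS2 (17.7 and 8.52 FPKM, -0.98 as deposited) was then called lower.

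Abundant members of that list stayed within 2-fold. Filamin A, FLNA, had 718 FPKM in parental cells and 932 in the resistant clone, TRIO had 105.9 and 131, LASP1 103 and 124, and SHC1 98.5 and 82.2. Of 14 regulators of integrin activity tested none was called, beside 4.59% called higher and 3.82% lower of all genes. The tetraspanins CD81 had 382 and 288 FPKM and CD151 212 and 272. BSG had 227 and 282, and the integrin-associated SLC3A2 161 and 279. At the authors' q-value under 0.05, SLC3A2 and RAP1B (66.5 and 129 FPKM) were higher and the other tested regulators were not called. Among relatives of the members, the talin TLN2 had 15.1 and 15.8 FPKM, YES1 had 29.9 and 27.5, and NEDD9 12.0 and 8.77. The hemidesmosome linker DST had 136 and 125 FPKM. Of 10 further integrin chains only ITGAE (18.8 and 11.4 FPKM) and ITGAX (1.62 and 2.03) were measured here, and neither was called.

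Matrix ligands of integrins were split. Of 35 tested, 6 were called higher and 5 lower, and 25 had negative folds (median -0.37). Among all 13937 genes tested, 6506 folds were negative (median 0.04). The shares called were 17.1% higher and 14.3% lower, beside 4.59% and 3.82% of all genes. The fibrillar collagen chains COL1A2 (1165 and 245 FPKM), COL3A1 (532 and 234) and COL1A1 (33.5 and 6.53) fell, as did fibrillin FBN1 (362 and 83.8) and periostin POSTN (46.1 and 2.83). The 10 collagen chains listed summed to 2410 FPKM in parental cells and 1072 in the resistant clone. Those called higher included osteopontin SPP1 (1.21 and 7.58 FPKM), NPNT (0.921 and 3.63), a ligand of ITGA8, THBS2 (42.1 and 99.5), CYR61 (47.4 and 112) and fibronectin FN1 (4.45 and 10.3). Abundant ligands within 2-fold were COL6A1 (193 and 207 FPKM), COL5A2 (222 and 120), LAMB2 (148 and 110) and COL5A1 (129 and 122).

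**Figure D4:**
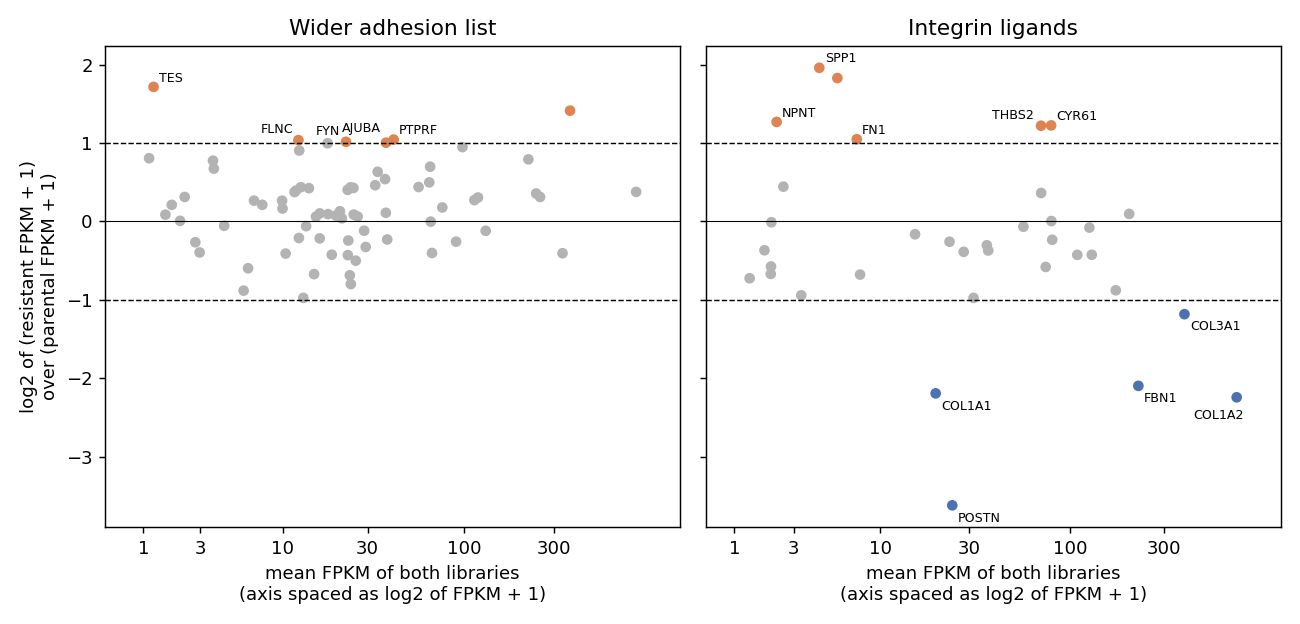
Log2 fold against mean FPKM of both libraries for the 74 tested genes of the wider adhesion list (left) and the 35 tested integrin ligands (right), each point 1 gene; dashed lines mark 2-fold, orange points were called higher and blue points lower, and the called genes named in the text are labelled. On the left 6 genes were called and all are higher, 4 of them close to the line; on the right 6 were higher and 5 lower.

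Markers of the labelled cell and of other cell types were read as levels. Of 11 glioma and astrocyte markers 5 were measured here, with vimentin, VIM, at 632 and 804 FPKM, CD44 at 83.1 and 161 and OLIG2 at 1.43 and 3.42, none of them called, while nestin, NES (33.7 and 5.08), and SOX2 (2.23 and 0.253) were called lower. The astrocyte marker GFAP was not among the 5. Of 9 leukocyte markers PTPRC (1.83 and 0.485 FPKM) and ITGAX (1.62 and 2.03) were measured, with a sum of 3.45 and 2.52 FPKM, and neither was called. Of 7 endothelial and pericyte markers 5 were measured, and their sum was 89.2 FPKM in parental cells and 36.4 in the resistant clone, with RGS5 (22.8 and 1.55) and TEK (9.53 and 1.56) called lower, a second identifier named RGS5 at 1.87 and 1.60, PDGFRB at 53.5 and 31.6, PECAM1 at 0.921 and 0.0225 and CDH5 at 0.583 and 0.141. Of 7 epithelial markers 5 were measured, with a sum of 606 and 1611 FPKM, nearly all from KRT8 (213 and 905) and KRT18 (392 and 702). KRT8 and ESRP1 (0.515 and 2.25 FPKM) were called higher. EPCAM (0.797 and 0.669) and KRT5 (0.566 and 0.236) were lower in the resistant clone, both under the filter. CDH1 and KRT14 were not measured. No measured marker was at 0. NES, SOX2, RGS5 (the first identifier) and TEK were thus called lower in the library in which ITGA4, ITGA7, ITGA10, ITGA11 and ITGB8 fell, and KRT8 and ESRP1 higher. The part of these markers in the falls of the 5 chains was not tested.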

How the data were processed

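RNA of 2 cell cultures was sequenced with a stranded mRNA kit, per the labels' protocols. Which aligner, counter, annotation and genome build were used is not given in the sources used here. What the authors deposited is a table of FPKM per gene and library, per the file headers, with their p-values and q-values; the test behind them is not stated. The summed FPKM came to 299594 for parental and 323932 for resistant cells. The table also holds the authors' log2 ratio, which enters no result. The lowest value of the higher library was 0.544 FPKM, and 111 and 182 genes were listed at 0 in the parental and resistant library.

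Members were matched by gene name, and coordinates by Ensembl identifier to GENCODE release 29. The listed locus held the annotated gene for 28 of 30 members, and 16 lay on a locus shared with another listed gene. Folds used a pseudocount of 1, a filter of 1 FPKM in either library and a threshold of 2-fold. With 1 library per group no test was run. Alternatives changed the pseudocount, filter, threshold, scaling and call rule, or left out genes at 0. RefSeq held promoter windows for 23 of 30 members. Python 3.11.15, pandas 2.3.3 and NumPy 2.4.6 were used.

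The members and lists were chosen with earlier results of these data known. Every member was named with both values. In the wider and ligand lists the rule named every called gene, of which 1 in each list is not reported here, and up to 4 uncalled genes per group with the highest mean FPKM. SSFA2, UPP1 and overlapping genes were named after their values were seen.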

Additional observations from a re-analysis of the deposited data

How the results depend on the processing

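No paired analysis was possible because each group held 1 library. The alternatives were planned, and no member's call changed direction in any. That was fixed by their form, so it is no check of direction. Filters, thresholds and pseudocounts keep the sign of a fold, and the q-value calls took their direction from the same FPKM. The scaling factors on the resistant library, 0.925 to 0.967, were too near to 1 to reverse a 2-fold call. The median of the integrin chains ran from -0.51 with sum scaling to -0.30 with no filter. That of the cytoplasmic proteins ran from -0.21 with sum scaling to -0.09 with a 5 FPKM filter. Pseudocounts and these scalings could not have made either median positive. The median over all genes moved as well, from 0.04 as deposited to -0.06 with sum scaling. Depth is unknown, so what it limits could not be set.

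With a pseudocount of 5, 2 members were called lower (ITGA11 and ITGA4, both integrin chains) and 0 higher, with 0 cytoplasmic proteins higher, 1 wider adhesion gene higher, and 220 genes higher and 114 lower in all. With a pseudocount of 0.1, 1 cytoplasmic protein, 2 wider adhesion genes and 8 ligands were lower, and 1076 genes were higher and 1029 lower in all. With the filter of 5 FPKM, which drops ITGA10, 282 genes were lower.

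At 1.5-fold, 5 members were higher (3 integrin chains and 2 cytoplasmic proteins) and 2 cytoplasmic proteins lower. There, 15 wider adhesion genes were higher and 6 lower, 11 ligands were lower, and 2020 genes were higher and 1674 lower in all. At 4-fold, 1 member was lower (the integrin chain ITGA11) and 0 higher, so 0 cytoplasmic proteins were higher. At that threshold 0 wider adhesion genes and 0 ligands were higher, and 61 genes were higher and 59 lower in all.

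With median scaling 2 cytoplasmic proteins were lower (VCL and TNS1), 2 wider adhesion genes higher and 1 lower. Upper quartile scaling and sum scaling gave the same counts and 0 members higher, as TNS3, a cytoplasmic protein, lost its call, leaving 0 of those higher. Scaling moved the calls of all genes the same way, from 640 higher and 532 lower as deposited. In all, 571 were higher and 580 lower with median scaling, 530 and 608 with upper quartile scaling, and 492 and 646 with sum scaling. By the authors' q-value, 8 members were lower and 3 higher, 3 cytoplasmic proteins were lower and 2 higher, 1 integrin chain was higher, 12 wider adhesion genes were higher and 2 lower, and 8 ligands were lower.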
